A study of Mus musculus with 2 samples.

Results

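The 9 genes described here belong to prolactin and growth hormone receptor signalling, with the related leptin receptor. They are the receptors Prlr, Ghr and Lepr, the kinase Jak2, the transcription factors Stat5a and Stat5b, and the inhibitors Socs2, Socs3 and Cish. They were picked by symbol from the 55536 annotated genes of the gene tables, and all 9 symbols were found. No rule on their values was used, but earlier results of these data were known when they were chosen. Their Ensembl identifiers in the files are ENSMUSG00000005268.20 (Prlr), ENSMUSG00000055737.12 (Ghr), ENSMUSG00000057722.17 (Lepr), ENSMUSG00000024789.13 (Jak2), ENSMUSG00000004043.14 (Stat5a), ENSMUSG00000020919.11 (Stat5b), ENSMUSG00000020027.18 (Socs2), ENSMUSG00000053113.3 (Socs3) and ENSMUSG00000032578.7 (Cish). Their RNA was measured in adrenal glands from a single group of 2 animals, called replicates 1 and 2: female B6CASTF1/J mice, a cross strain, each 4 days old. The labels name no treatment and no engineered allele, and with 1 group there was no condition to compare. Ribosomal RNA was removed, the libraries kept strand, and 300 ng of total RNA with ERCC spike-in RNA went into each. The labels disagree on which animal gave replicate 2, but call the libraries biological replicates. Replicate error here is the spread between these 2 libraries.

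Prolactin and growth hormone are pituitary hormones, and leptin comes from fat. Their receptors belong to the class I cytokine receptors, which have no enzyme of their own and bind the tyrosine kinase JAK2 through the part inside the cell. JAK2 phosphorylates the receptor and the transcription factors STAT5A and STAT5B, or STAT3 in the case of leptin, which then enter the nucleus. SOCS2, SOCS3 and CISH are made in response to STAT activity and damp the same receptors. In the adrenal cortex, prolactin receptor is known from steroid-producing cells, where prolactin acts on steroid output.

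Sequencing depth was 31838341 (replicate 1) and 32931868 (replicate 2) expected counts, an expected count being a read count in which a read that fits several transcripts is divided among them. The markers of the labelled tissue were present: all 7 genes of the adrenal cortex list and all 6 of the medulla list were detected, with summed levels of 6068 and 6684 TPM for cortex and 1836 and 2150 TPM for medulla in replicates 1 and 2. TPM is a level per length of transcript, scaled to the same total in each library. The libraries stood apart in markers of other organs. The sum of exocrine pancreas markers was 4347 TPM in replicate 1 but 21.4 TPM in replicate 2, where 3 of 10 had no count, and that of islet markers was 622 and 1.87 TPM, with 5 of 6 at no count in replicate 2. Kidney markers summed to 109 and 11.7 TPM, while liver markers summed to 145 and 613 TPM and skeletal muscle markers to 374 and 2344 TPM. Levels of the 9 genes are therefore given for each animal. In whole-organ RNA, fewer cells of a type and less RNA per cell cannot be told apart. Adipose markers were present in both libraries, with sums of 678 and 767 TPM. Their part in the levels of the 9 genes was not tested.

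The hormones themselves were nearly absent. Of 12 ligands of this receptor class, 6 had no count in either library: Prl (prolactin), Gh (growth hormone), the placental prolactin relatives Prl2c2, Prl3b1 and Prl3d1, and Epo, the red cell hormone. For Prl, 3 counts would have stood for 0.128 and 0.124 TPM, so lower levels were not detectable at this depth. Thpo, the platelet hormone, at 1.36 and 1.07 TPM, was the single ligand that reached 1 TPM in each animal. The reads carry no molecular identifiers and so are not independent molecules: this limit and the intervals below cover counting error only.

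Prlr was the highest of the 9 genes. Its level was 50.94 TPM in the first animal and 54.57 TPM in the other (52.8 ± 2.57 TPM, SD, n = 2), from 8281 and 8681 expected counts, and above 90.4% of the 13054 nuclear protein-coding genes that reached 1 TPM in each animal, called detected here. Ghr, the growth hormone receptor, stood at 21.64 and 18.61 TPM (20.1 ± 2.14 TPM, SD, n = 2), above 67.1% of them. Lepr, the leptin receptor, was the lowest of the 9 at 4.19 and 3.82 TPM (4.01 ± 0.262 TPM, SD, n = 2), above 17.7%. The 3 receptors did not overlap between animals. Prlr exceeded Ghr by 1.39 ± 0.22 on the log2 scale (2.63-fold, SD, n = 2 animals) and Lepr by 3.72 ± 0.16 (13.2-fold), and Ghr exceeded Lepr by 2.33 ± 0.06. A second deposited quantification of the same libraries, made from the reads directly, gave Prlr over Ghr as 1.36 ± 0.27. The gap was smaller when only transcripts with a complete coding sequence were counted, a choice made after the values were seen. Prlr was then at 25.32 and 24.70 TPM and Ghr at 16.88 and 14.89 TPM in the first quantification.

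Prlr lies at chr15:10177238-10349180 on the plus strand of mm10, and Ghr at chr15:3317760-3583492 on the minus strand of the same chromosome. Lepr lies at chr4:101717404-101815352 on the plus strand. Prlr overlaps Gm21973 on the same strand, to which 0 and 2.16 expected counts were given. Each of the 3 genes makes proteins that share the part outside the cell and differ in what follows, so the forms differ in what they can pass on. The long prolactin receptor carries the full part inside the cell, and short forms keep the membrane segment and lack most of that part. The short Ghr form ends before the membrane segment and is secreted as the growth hormone binding protein. The long leptin receptor, often called Ob-Rb, is the form that carries the STAT3 site, and the short forms lack it.

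The points at which the annotated coding sequences part are shown because the form shares below rest on them. Each line gives the last 12 shared coding bases in lower case and the form's own bases in capitals, to the stop codon for the short forms and for the first 60 bases of the long ones (mm10, strand of the gene).
Prlr-202, long: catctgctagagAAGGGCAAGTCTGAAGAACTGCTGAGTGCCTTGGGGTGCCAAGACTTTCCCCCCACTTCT
Prlr-204, short: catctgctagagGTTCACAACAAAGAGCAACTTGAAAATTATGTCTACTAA
Prlr-205, short: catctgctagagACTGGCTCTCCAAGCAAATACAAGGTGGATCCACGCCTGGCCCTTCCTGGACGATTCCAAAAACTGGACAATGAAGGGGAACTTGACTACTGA
Prlr-212, short: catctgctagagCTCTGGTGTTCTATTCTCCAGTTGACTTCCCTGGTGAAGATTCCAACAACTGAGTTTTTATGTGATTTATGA
Ghr-201 and Ghr-208, full length: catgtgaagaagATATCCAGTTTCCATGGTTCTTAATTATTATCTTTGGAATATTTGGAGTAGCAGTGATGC
Ghr-202 and Ghr-203, binding protein: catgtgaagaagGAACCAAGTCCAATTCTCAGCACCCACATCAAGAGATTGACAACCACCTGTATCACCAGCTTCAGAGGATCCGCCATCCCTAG
Lepr-201, long: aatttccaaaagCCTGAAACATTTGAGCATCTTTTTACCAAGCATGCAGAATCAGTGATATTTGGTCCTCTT
Lepr-202, short: aatttccaaaagGTCACTGTTTAA
Lepr-203, short: aatttccaaaagAGAACGGACACTCTTTGA

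The 4 Prlr forms share 280 codons, after which Prlr-202 adds 328 and the short forms add 12, 30 and 23 in the order printed. The own part of Prlr-202 is a single exon at chr15:10328281-10329264, and those of the short forms lie further along the gene, the first at chr15:10341774-10341809. The Ghr forms share 811 coding bases, after which the full-length receptor adds 380 codons and the binding protein 27. The binding protein's end is an exon of its own at chr15:3327607-3327686. The Lepr forms share 889 codons, and then Lepr-201 adds 273, Lepr-202 adds 3 and Lepr-203 adds 5.

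**Figure D1:**
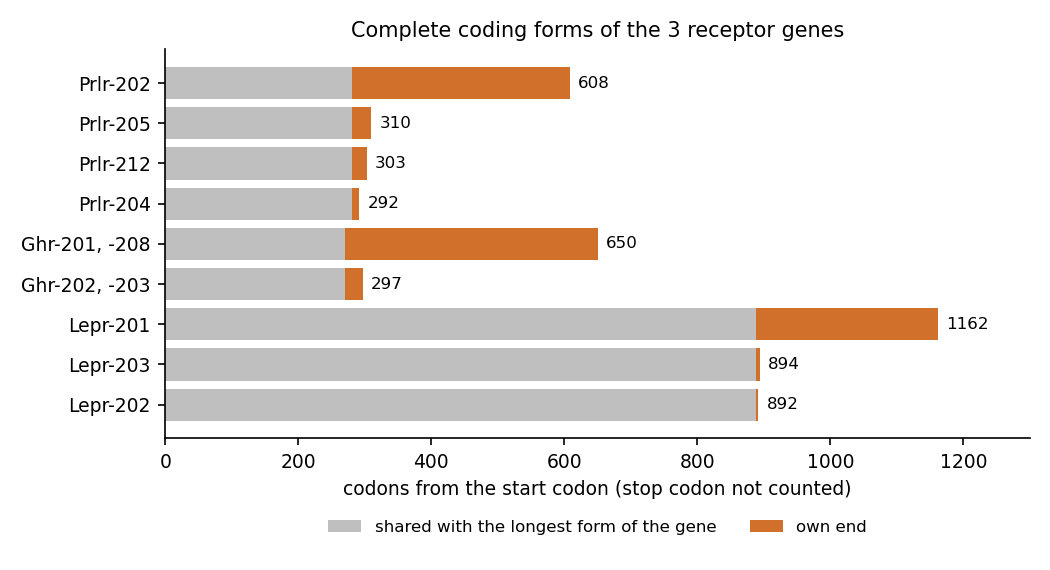
Length of each annotated complete coding form of Prlr, Ghr and Lepr, in codons from the start codon; grey is the part shared within a gene and orange the form's own end. The long forms reach 608, 650 and 1162 codons, and the short Lepr forms differ from the shared part by only 3 and 5 codons.

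Nearly all complete Prlr transcript was the long form. Prlr-202 stood at 23.47 and 23.77 TPM in replicates 1 and 2, and the 3 short forms summed to 1.85 and 0.93 TPM. Among transcripts with a complete coding sequence, the long form was 92.7% and 96.2%, and the second quantification gave 93.0% and 97.5%. Of all Prlr transcript TPM it was 46.1% and 43.6%. The remainder lay in models that do not encode a whole receptor: incomplete coding models held 33.2% and 36.9%, led by the 564-base Prlr-203 at 15.91 and 19.00 TPM, and non-coding models held 16.8% and 16.7%, led by the retained-intron model Prlr-201 at 6.79 and 6.50 TPM. TPM weights short models up. In expected counts Prlr-202 held 85.5% of Prlr in both animals, and Prlr-203 held 2.75% and 3.24%.

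Ghr transcript was divided between receptor and binding protein. The full-length form summed to 9.19 and 8.27 TPM and the binding protein form to 7.69 and 6.62 TPM. Full-length transcript was 54.4% and 55.5% of complete coding Ghr, and 54.2% and 56.8% in the second quantification. In expected counts, which are not divided by length, the full-length form was 74.1% of all Ghr (mean of 2 animals), against 43.5% in TPM. Which binding protein model held the signal did depend on the method: Ghr-202 was at 0 and 0.20 TPM in the first quantification and at 8.96 and 7.07 TPM in the second, while Ghr-203 was at 7.69 and 6.42 TPM and at 5.36 and 4.33 TPM. Both encode the same 297 codons, so their sum is the steadier value. The incomplete model Ghr-209 held 12.6% and 12.2% of Ghr TPM.

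The short forms made up most of Lepr. They summed to 3.08 and 3.22 TPM, or 73.7% and 84.5% of Lepr, and the second quantification gave 78.1% and 83.8%. Lepr-203 alone stood at 3.08 and 2.91 TPM. The long form Lepr-201 was at 0.13 and 0.31 TPM, or 3.11% and 8.14%, from about 16.7 and 39.8 expected counts. It was the lowest long form of the 3 genes in both animals. The neighbouring Leprot, which shares the start region of the Lepr locus and encodes another protein, stood at 35.08 and 35.59 TPM.

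**Figure D2:**
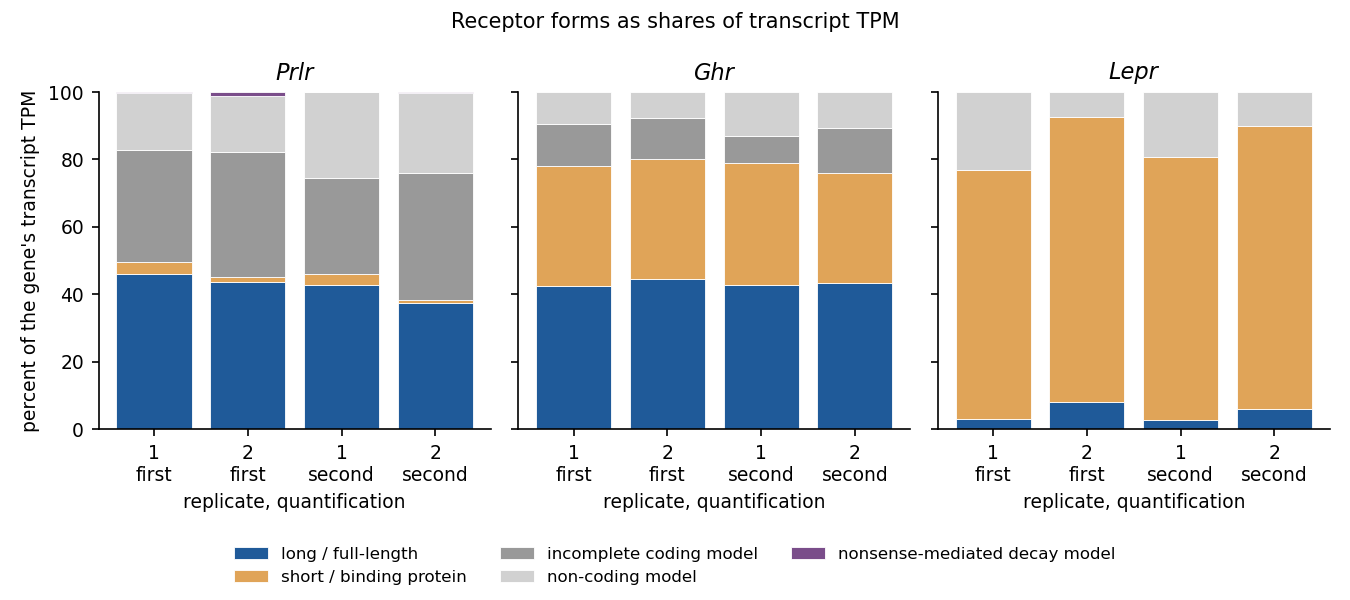
Stacked bars give each kind of transcript as a percent of the transcript TPM of Prlr, Ghr and Lepr, for replicates 1 and 2 in the first and the second quantification. The long form leads in Prlr in the first (46.1% and 43.6%), while in the second it is at 42.7% and 37.3% with incomplete models at 28.5% and 37.8%; full-length and binding protein forms share Ghr, and short forms lead in Lepr (73.7% and 84.5%).

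Among 13 receptors of this class and their partners, 10 were detected, and Prlr was the second highest. Il6st, the signalling chain shared by interleukin-6 type cytokines, led at 102.9 and 114.6 TPM. Below Prlr came Il11ra1, the interleukin-11 receptor, at 31.40 and 33.25 TPM, and Lifr, the leukaemia inhibitory factor receptor, at 23.07 and 19.16 TPM. The ranges of Ghr and Lifr overlapped, and their order depended on the quantification. Within each animal Lifr was above Ghr in the first. It was below Ghr in the second, at 37.2 and 32.9 TPM against 39.6 and 34.7 TPM.

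Jak2, the kinase used by all 3 receptors, was among the lower members by TPM over all transcripts. It lies at chr19:29251828-29313080 on the plus strand and stood at 9.25 and 8.70 TPM (8.98 ± 0.389 TPM, SD, n = 2), above 38.9% of detected genes. Its 3 complete models encode the same 1132 codons. Jak2-202 led with 75.2% and 78.7% of Jak2 TPM in the first quantification, but the second gave it 49.0% and 48.3% and Jak2-204 48.7% and 51.7%. All 4 Janus kinases were detected. Jak1, which works with interferon and interleukin-6 type receptors, was the highest at 42.77 and 40.73 TPM. Tyk2 stood at 6.75 and 7.04 TPM and Jak3 at 6.31 and 5.42 TPM. None of the 4 passed the exact binomial test between libraries described further on, which called 33% of all 13734 genes tested. In that binomial test the adjusted p was 0.606 for Jak2.

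Stat5b exceeded Stat5a. Stat5b stood at 24.34 and 24.63 TPM (24.5 ± 0.205 TPM, SD, n = 2) and was the second highest of the 9 genes. Stat5a stood at 12.19 and 13.18 TPM (12.7 ± 0.700 TPM, SD, n = 2). The difference was 0.95 ± 0.07 on the log2 scale (1.93-fold, SD, n = 2 animals), and 0.93 ± 0.18 in the second quantification. The animals' values did not overlap. Stat5a and Stat5b are near-identical neighbours, so how the authors' counting divided shared reads bears on this ratio. Stat5b lies at chr11:100780731-100850724 on the minus strand and Stat5a at chr11:100859351-100885169 on the plus strand, and the end of Stat5a overlaps Stat3 on the other strand.

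The leading transcript of Stat5b was Stat5b-201 (786 codons), with 69.6% and 68.9% of Stat5b TPM, or 72.1% and 84.1% in the second quantification. For Stat5a the methods disagreed. Stat5a-202 held 49.3% and 34.2% in the first quantification and 2.07% and 0.31% in the second, where Stat5a-201 held 61.4% and 58.6%. Both encode 793 codons. Of the 7 STAT genes, 6 were detected. Stat6, which serves interleukin-4 and interleukin-13, was highest at 27.86 and 27.94 TPM, followed by Stat3, the leptin and interleukin-6 factor, at 26.73 and 24.00 TPM and then Stat5b. The Stat3 and Stat5b ranges overlapped in the first quantification. In the second, Stat3 was higher, at 52.9 and 46.2 TPM against 40.3 and 39.9 TPM.

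Socs2 was the highest of the 3 inhibitors. Socs2, known as the main brake on growth hormone signalling, lies at chr10:95385362-95417180 on the minus strand and stood at 15.89 and 13.55 TPM (14.7 ± 1.65 TPM, SD, n = 2). Cish, the founding member of the family and a STAT5 target, lies at chr9:107296026-107302784 on the plus strand and stood at 8.02 and 9.96 TPM (8.99 ± 1.37 TPM, SD, n = 2). Socs3, the inhibitor of leptin and interleukin-6 type receptors, lies at chr11:117966079-117970047 on the minus strand and stood at 4.21 and 4.35 TPM (4.28 ± 0.0990 TPM, SD, n = 2). Cish overlaps Gm17040 and Gm17041 on the other strand, which held at most 3 counts in a library. The 3 ranges did not overlap. Socs2 exceeded Cish by 0.72 ± 0.38 and Socs3 by 1.78 ± 0.20 on the log2 scale (SD, n = 2 animals).

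The order of Cish and Socs3 depended on the quantification. Cish exceeded Socs3 by 1.06 on the log2 scale in the first, and in the second it was lower by that measure at -0.36, in both animals. For most genes the second quantification gave higher TPM, by a median of 0.86 on the log2 scale over 13004 genes, with the central 80% from 0.64 to 1.25. Cish moved by 0.11 and Socs3 by 1.54, and these were the only members outside that range. The transcript values show where the methods parted. Cish-201, the only model with the whole coding sequence of 257 codons, held 7.35% and 3.11% of Cish in the first quantification and 45.8% and 56.1% in the second. In the first, the signal lay in the 62-codon model Cish-204 (33.3% and 34.7%) and the non-coding models Cish-205 (38.4% and 39.5%) and Cish-202 (21.1% and 14.5%). For Socs3, the coding model Socs3-201 (225 codons) held 96.7% and 93.1% in the first, and the second gave 45.1% and 42.4% to the non-coding Socs3-202. Short models with few reads weigh heavily in these shares. Socs3-202 (490 bases) had 21 and 19 estimated counts in the second, and Cish-205 (371 bases) 25.8 and 34.0 expected counts in the first. In estimated counts of the second, not divided by length, Cish was above Socs3, at 599 and 665 against 355 and 358. Socs2-201 (198 codons) led Socs2 with 50.3% and 48.9%, or 56.6% and 54.4% in the second.

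Counting only transcripts with a complete coding sequence, a choice made after the values were seen, gave the same order of Socs3 and Cish in both quantifications, but counts the 62-codon Cish-204 as Cish. Socs3 then stood at 4.07 and 4.05 TPM and Cish at 3.26 and 3.77 TPM, and in the second quantification Socs3 was at 7.09 and 6.92 TPM and Cish at 5.87 and 6.85 TPM. Socs3 was above Cish in both animals by both methods. The methods still parted on the transcript of the whole Cish protein: Cish-201 alone was at 0.59 and 0.31 TPM in the first quantification and at 4.38 and 5.52 TPM in the second, in each case below Socs3 and Lepr on this scale. Prlr at 25.32 and 24.70 TPM, Stat5b at 18.72 and 20.92 TPM and Ghr at 16.88 and 14.89 TPM remained the 3 highest. Jak2 ranked 4 by mean in both quantifications. It stood at 9.26 and 8.69 TPM in the first, where its range overlapped those of Stat5a and Socs2. Lepr was at 3.21 and 3.53 TPM, and at 5.84 and 6.16 TPM in the second quantification. Prlr and Stat5b lay closer on this scale, and 47.4% of Prlr TPM lay in complete coding transcripts against 80.9% of Stat5b.

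**Figure D3:**
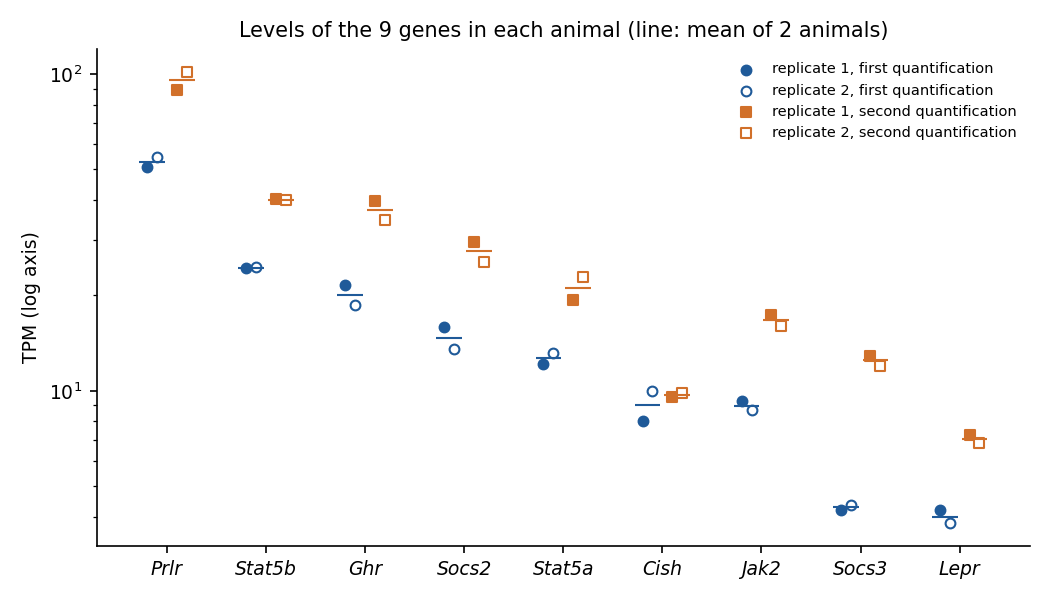
Levels of the 9 genes in TPM on a log axis, ordered by the mean of the 2 animals in the first quantification; filled and open symbols are replicates 1 and 2, and the symbol shape and colour give the quantification. Prlr is highest and Lepr lowest in the first, and Socs3 lies above Cish in the second.

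Ordered by mean TPM over all transcripts, the 9 genes ran Prlr, Stat5b, Ghr, Socs2, Stat5a, Cish, Jak2, Socs3, Lepr. Of the 8 neighbouring pairs, 7 had ranges that did not overlap and the same order in both animals in the second quantification. Cish and Jak2 did not differ by that rule, since Cish was lower in replicate 1 and higher in replicate 2. Some gaps that met the rule were small: Socs2 exceeded Stat5a by 0.38 in replicate 1 and 0.04 in replicate 2 on the log2 scale, and Socs3 exceeded Lepr by 0.01 and 0.19. All 9 genes were detected, as were 59.3% of 22015 nuclear protein-coding genes. Of the 9, 5 lay above the median of detected genes, 12.4 TPM: Prlr, Stat5b, Ghr, Socs2 and Stat5a.

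All 8 genes of the SOCS family were detected, and the 3 members did not lead it. Socs5 and Socs6, family members tied to growth factor receptors, stood at 19.07 and 18.87 TPM and at 16.39 and 15.77 TPM. Socs5 was above Socs2 in both animals by both methods. The ranges of Socs6 and Socs2 overlapped in the first quantification. In the second, Socs6 was lower, at 23.0 and 22.3 TPM against 29.5 and 25.6 TPM. Socs7, at 9.77 and 9.31 TPM, overlapped the range of Cish in the first quantification. In the second, Socs7 was higher, at 17.9 and 16.8 TPM against 9.58 and 9.84 TPM. Of the 8, only Socs2 differed between libraries beyond sampling in the binomial test, where 33% of all 13734 genes tested did. In that binomial test the adjusted p ran from 0.0877 to 0.851 for the others.

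**Figure D4:**
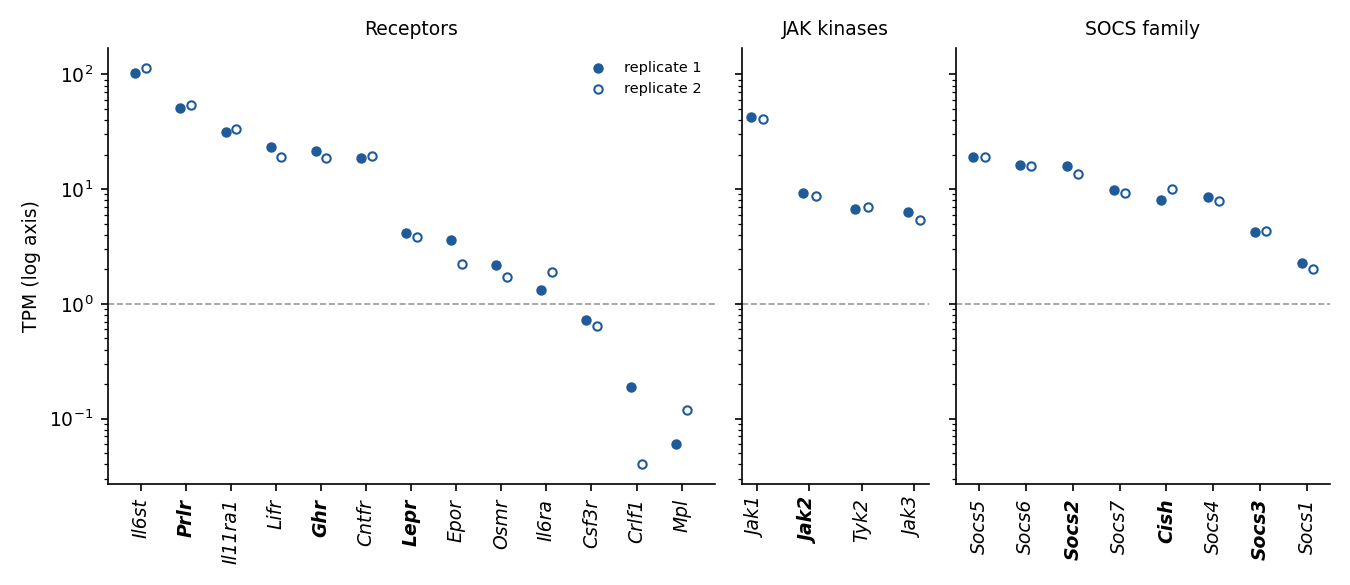
Levels in TPM on a log axis of the receptors, Janus kinases and SOCS genes in replicates 1 (filled) and 2 (open); members are in bold and the dashed line marks 1 TPM. Prlr is second among the receptors at 50.94 and 54.57 TPM, and Jak2 lies well below Jak1 among the kinases.

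Of 18 genes known as STAT5 targets in various tissues, 12 were detected, where 59.3% of all nuclear protein-coding genes were. The list does not give the direction in which STAT5 acts on each gene, so their levels are no measure of STAT5 activity. Ccnd2, a cyclin that drives cell division, was highest at 95.35 and 112.3 TPM. Akr1c18, a progesterone-inactivating enzyme and marker of the mouse X-zone, stood at 90.93 and 84.61 TPM. Pik3c2g, the other X-zone marker listed, was below 1 TPM in both animals, at 0.56 and 0.43 TPM. Rgs2, a regulator of G-protein signalling, stood at 60.24 and 76.26 TPM, and Ccnd1, another cyclin, at 47.17 and 43.78 TPM. Igf1, the growth factor through which growth hormone acts in liver, is named outside the rule for naming genes, after its values were seen: it stood at 16.45 and 19.68 TPM. The milk protein genes Csn2 and Wap had no count in either library.

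The 9 genes differed little between the animals. A difference of 2-fold or more, in expected counts scaled by the trimmed mean of M-values, was seen for 0 of 9, where 3.21% of the 13734 genes whose mean count reached 100 passed that size. At 1.5-fold the count was again 0 of 9, with 5.53% of all genes. The median log2 ratio of replicate 2 over replicate 1 was 0.06 for the members and 0.02 for all genes, and the median absolute ratio was 0.10 for the members and 0.11 for all genes. Replicate 2 was higher for 6 members and replicate 1 for 3.

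Beyond sampling error, 5 of 9 members (55.6%) differed between the libraries, by edgeR scaling and an exact conditional binomial test with Benjamini-Hochberg adjustment over all 13734 genes, which called 33% of them. The test compares these libraries and not conditions, and with 2 animals no test over animals can give an exact two-sided p below 0.5. Socs2 had the largest ratio of the members, with 857 and 667 expected counts and a log2 ratio of -0.37 (95% exact counting interval -0.51 to -0.22), larger in size than that of 89.5% of genes. Ghr was also lower in replicate 2, at 1574 and 1414 expected counts and -0.16 (-0.26 to -0.05). The other called members were higher in replicate 2: Stat5b at 0.19 (0.12 to 0.26), Stat5a at 0.17 (0.05 to 0.29) and Prlr at 0.06 (0.02 to 0.11). In that binomial test the adjusted p was 8.37e-06 for Socs2, 2.24e-06 for Stat5b, and between 0.0116 and 0.0161 for Ghr, Prlr and Stat5a. Jak2, Cish, Socs3 and Lepr had intervals that held 0 and adjusted p from 0.433 to 0.851. Only Socs2 and Stat5b were called under every scaling and in both quantifications: Prlr and Stat5a were not with total-count or spike-in scaling, and Ghr was not in the second quantification (exact binomial test, adjusted p = 0.0579).

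Some of these signs depended on the scale. Prlr turned to -0.02 under spike-in scaling, Socs3 to -0.04, and Lepr to -0.13 in the deposited TPM, while the other 6 members kept their sign under each scaling and quantification tried. Stat5b was nearly level in the deposited TPM, at 0.02. Pancreas and kidney markers were higher in replicate 1, as Socs2 and Ghr were, and liver and muscle markers in replicate 2, as Stat5a, Stat5b and Prlr were, with the sums given above. All 9 macrophage markers were also higher in replicate 2 (sums of 105 and 144 TPM, median log2 ratio 0.41), as were all 6 medulla markers (median 0.27) and all 7 genes of the adrenal cortex list (median 0.14). A separate list of 4 markers of the zona glomerulosa, a zone of the cortex, was divided, with 2 higher in each replicate. Its sum was 354 and 311 TPM, and Cyp11b2 stood at 99.62 and 64.56 TPM. The part of any of these tissues in the differences was not tested.

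**Figure D5:**
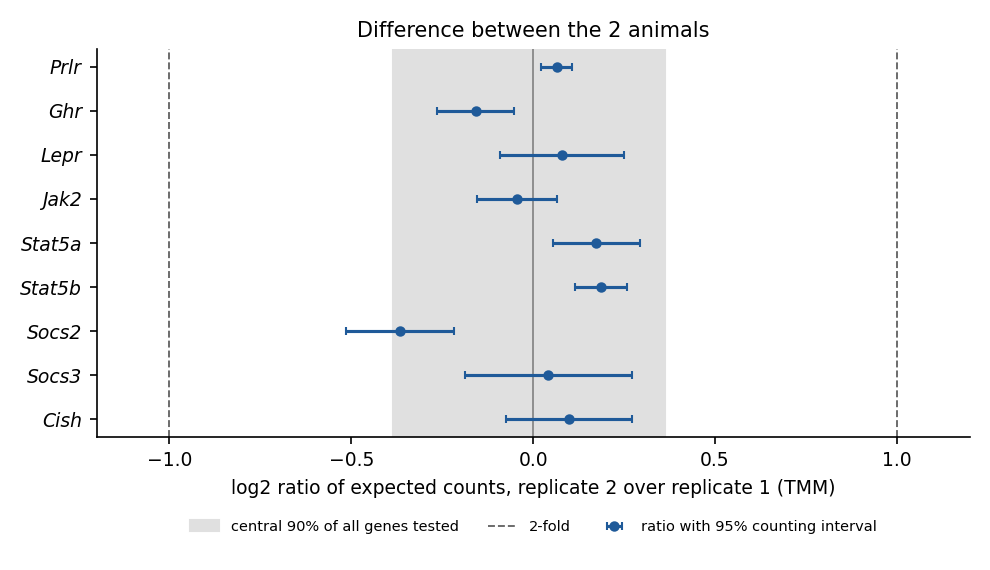
Points give the log2 ratio of scaled expected counts, replicate 2 over replicate 1, for each of the 9 genes, and bars the 95% counting interval; the grey band holds the central 90% of 13734 genes and dashed lines mark 2-fold. All 9 points lie inside the band, with Socs2 at -0.37 near its edge.

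Promoter windows were searched for the letters of the STAT5 site because Cish, Socs2 and Socs3 are known to respond to STAT factors. RefSeq windows (GRCm38.p6, 250 bases before to 50 after a start) matched 8 of the 9 genes, in 14 windows, and Socs2 was not among them. The motif TTCNNNGAA reads the same on both strands in its fixed letters. It was found in 3 of the 8 genes, in 1 window each: Cish, Socs3 and Prlr. Of all 32851 windows 8.30% hold it, and of all 27025 genes 9.55%. The matches are shown within 80 bases, with the motif in capitals, on the strand of the gene.
Cish, chr9:107296599-107296678: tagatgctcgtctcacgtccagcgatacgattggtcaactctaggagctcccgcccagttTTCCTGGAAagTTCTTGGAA
Socs3, chr11:117969477-117969556, minus strand: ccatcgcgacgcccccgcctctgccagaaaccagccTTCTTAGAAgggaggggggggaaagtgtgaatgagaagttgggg
Prlr, chr15:10223756-10223835: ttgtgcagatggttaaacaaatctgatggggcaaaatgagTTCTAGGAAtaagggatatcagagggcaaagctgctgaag

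The Cish window holds 2 matches, at bases 1 to 9 and 12 to 20 counted from the start site, and 0.457% of all windows hold 2 or more. The Socs3 match lies 154 to 146 bases before the start, and the Prlr match 110 to 102 bases before the start of one of its windows. A match of letters is a description and not a bound site. The same letters with 4 free bases in place of 3, which cannot share both ends with these matches, was found in none of the 14 windows and in 6.95% of all windows. The genes with a match were not set apart by level: Prlr was the highest member, and Cish and Socs3 were among the 4 lowest.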

How the data were processed

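Per the file headers, the deposited gene and transcript tables gave expected counts, TPM and isoform percentages, the last as percent of a gene. A second deposited table gave estimated counts and TPM per transcript, here summed to genes. Per the authors' notes, the assembly was mm10 and the annotation M21, and the first tables came from alignments to the transcriptome. Tools, versions and the handling of the CAST allele were not given in the sources used here.

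Genes were matched to GENCODE M21, and forms were told apart by coding length. ERCC spike-ins, 0.900% and 0.923% of counts, were left out. Counts were scaled with edgeR 4.0.16 in R 4.3.3, with a prior of 0.5 for ratios. Intervals and tests were conditional binomial (scipy 1.17.1, Python 3.11.15), tested on simulated data. A gene with no count could have held up to 9.42e-06% and 9.11e-06% of the library (3 counts). Detected means 1 TPM in both animals. Of other genes, the text names the 4 highest of each list, any 2-fold call and ligands at 0; 1 item is not reported here. Members and lists were chosen with earlier results of these data known. Alternatives were DESeq2 1.42.0, total-count and spike-in scaling, a prior of 2, posterior means and the second quantification. A planned comparison of proteins was not run.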

Additional observations from a re-analysis of the deposited data

How the results depend on the processing

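All 9 members were detected, and 0 of 9 passed 2-fold, under each alternative run. The number differing beyond sampling fell from 5 to 3 of 9 with total-count scaling and to 3 with spike-in scaling (Ghr, Stat5b and Socs2 in each). Of all genes tested, 33.2% were called with total-count scaling and 37.1% with spike-in scaling, against 33% in the main setting. The excess of members over all genes was thus not kept under these 2 scalings, and the cause was not tested. The long form's share of Prlr was 44.8% (mean of 2 animals), 40.0% in the second quantification and 85.5% in expected counts, which do not divide by length. On expected counts full-length Ghr was 74.1% against 43.5%, and short Lepr forms 92.8% against 79.1%. Posterior mean isoform percentages gave short Lepr 66.4%, and the cause was not tested. Leaving out each animal gave 43.6% to 46.1% for Prlr, 42.5% to 44.4% for Ghr and 73.7% to 84.5% for Lepr. Members with a promoter match went from 3 to 0 with the wider spacing, which is another motif. Neighbours in the order of levels that differed numbered 7, with 6 to 8 under the other quantifications and 5 on complete coding transcripts, an alternative chosen after seeing the data. No paired analysis was possible because there was only 1 group. Forms with few counts, such as long Lepr, and ligands are limited by depth.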

Other observations

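All 17 adaptors, phosphatases and PIAS proteins of the pathway, which link these receptors to other routes or switch them off, were detected in each animal. The highest were Shc1 at 50.65 and 50.15 TPM and Grb2 at 41.47 and 44.23 TPM, adaptors that lead to the RAS route. Ptpn11, the phosphatase SHP-2, stood at 31.19 and 31.56 TPM, and Pias2, a protein that binds STAT factors, at 24.13 and 22.90 TPM. None of the 17 passed 2-fold between the animals, and 3 differed beyond sampling in the exact binomial test. Over all 81 genes of the pathway lists, 60 were detected in both animals, 59 reached the count minimum and 18 of those (30.5%) differed beyond sampling, where 33% of all genes did.

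A pair of genes below the count minimum, picked after their values were seen, differed between the animals. Lep, the gene of leptin, had 18 and 67 expected counts in replicates 1 and 2, a log2 ratio of 1.86 (95% exact counting interval 1.12 to 2.73). The summed adipose markers stood at 678 and 767 TPM. Elf5, a factor of milk-producing and kidney epithelium, had 48 and 2 expected counts, and the kidney markers summed to 109 and 11.7 TPM. The part of those tissues in either value was not tested.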
